A study of Oncorhynchus mykiss with 72 samples.

Results

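This comparison set gills of the F1 cross between the Little Jacks and Keithly strains of redband trout (Oncorhynchus mykiss) at 28 °C on day 7 against gills of the same cross at 15 °C on day 7. It rests on 6 of the 72 libraries, chosen by the strain, temperature and day in their labels, with 3 libraries at each temperature. The series holds both parental strains, Little Jacks from a desert creek and Keithly from a montane creek, and their F1 cross, each at 28 °C and at 15 °C on days 1, 3, 7 and 28. Every library pooled RNA from 3 samples of fish that shared a rearing tank, per the footnote of the deposited library table. The labels give no age, no sex and no course of warming, and they do not say which tank a library came from, so the p-values measure the spread between such pools. The gill label was not checked against marker genes, because none of the 25137 feature identifiers matched the reference table of gene names. Features are therefore given by identifier, except for 9 ribosomal RNA features that the tables name.

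The gill is the organ through which a fish takes up oxygen, excretes ammonia and regulates ions, and its epithelium lies directly in the surrounding water. In animal cells a rise in temperature unfolds proteins, and heat shock transcription factors then raise the transcripts of chaperones, which refold or hold such proteins. Ribosomal RNA is the structural and catalytic core of ribosomes, with 12S and 16S in the mitochondrial ribosome and 18S and 28S in the cytosolic one. No feature without a name is assigned to any of these families here.

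Reads counted per feature reached 10.1, 9.23 and 10.2 M (M, mega) in the 28 °C libraries, numbered replicates 1 to 3 by their column names. The 15 °C libraries had 6.14, 2.57 and 3.08 M, so every 28 °C library was deeper than every 15 °C library. The quality reads did not separate in this way, with 28.5, 26.4 and 28.0 M at 28 °C and 33.2, 32.6 and 27.3 M at 15 °C. The share of them matched to the transcriptome was 38.2% ± 0.780 (SD, n = 3) at 28 °C against 13.8% ± 5.80 at 15 °C, a two-sided exact permutation p of 0.1, adjusted to 0.2 over 4 library measures. With 3 libraries against 3, 0.1 is the smallest p that this test can give. Thinning every deeper library to 2.57 M reads is given beside the counts below, and the part of the matched share in the results was not tested. None of the 6 libraries was among 7 of the series that lay apart from their groups along the first component of within-group residuals, which took 28.8% of that variance.

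**Figure D1:**
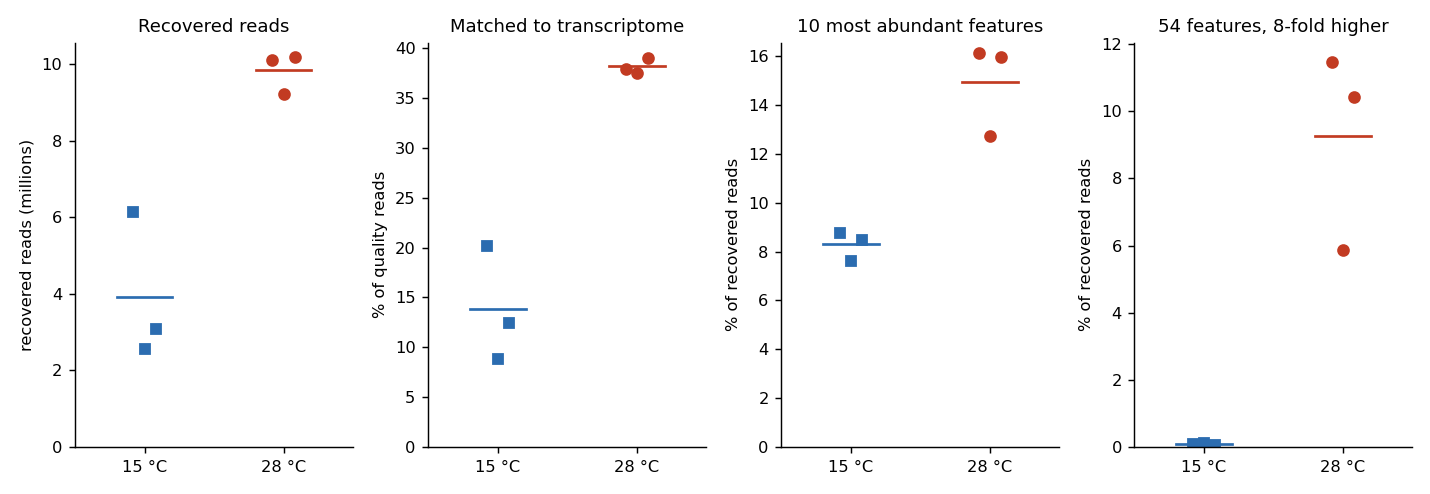
Recovered reads (M), percent of quality reads matched to the transcriptome, percent of reads in the 10 most abundant features, and percent of reads in the 54 features called at least 8-fold higher, for the F1 cross on day 7. Points are the 3 libraries at each temperature and lines their means, and the 28 °C libraries lie above the 15 °C libraries in each panel.

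The question was which gill transcripts of the cross differed between the temperature labels on day 7. The labels do not say how the temperature ran before that day. Of 24011 features tested, 1147 were called at a limma adjusted p under 0.05 (4.78%). Of these, 595 were higher at 28 °C (2.48% of all features) and 552 were lower (2.3%). The median log2 fold change of the higher ones was 1.38, with quartiles of 1.02 and 2.08, and that of the lower ones was -1.36, with quartiles of -1.06 and -1.72. The median over all features was 0.00, and 89.95% of them lay within 2-fold. In bulk gill RNA, a change in the number of cells of a type and a change in RNA per cell cannot be told apart.

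The largest rises were larger than the largest falls. Of the higher features, 161 were at least 4-fold higher, 54 at least 8-fold and 21 at least 16-fold. Of the lower features, 85, 13 and 5 were lower by at least as much. Features that were higher had a median level of 15.0 normalised units at 15 °C and 43.3 at 28 °C. Those that were lower had 37.4 at 15 °C and 13.9 at 28 °C. In these 6 libraries 1 read was worth 0.0926 to 0.327 units, by the smallest value in each column. All features together had a median of 8.60 at 15 °C.

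Few features went from close to absent to present. With a value of at most 1 in every 15 °C library and at least 5 in every 28 °C library, 6 features were counted, and all 6 were called. Their mean values at 28 °C ran from 7.28 to 297.05. A single feature met the opposite condition, with a mean of 18.8 at 15 °C, and it was called lower. Of all features, 2.48% were called higher and 2.3% lower. The features counted here were chosen by their values in the same 6 libraries, so their calls are a description.

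Values of the 2 groups did not overlap for 594 of the 595 higher features and for 538 of the 552 lower ones. Over all features the 28 °C libraries were all above the 15 °C libraries for 14.4% and all below for 14.1%. The called features were chosen on the same libraries, so their lack of overlap is a description. Calls were more frequent among abundant features. Between 1 and 5 units on average, 0.493% of features were called higher and 0.405% lower, whereas at 1000 units and more, 12.6% and 7.77% of 103 features were. Precision rises with the number of reads, so this share does not compare the responses of rare and abundant transcripts.

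**Figure D2:**
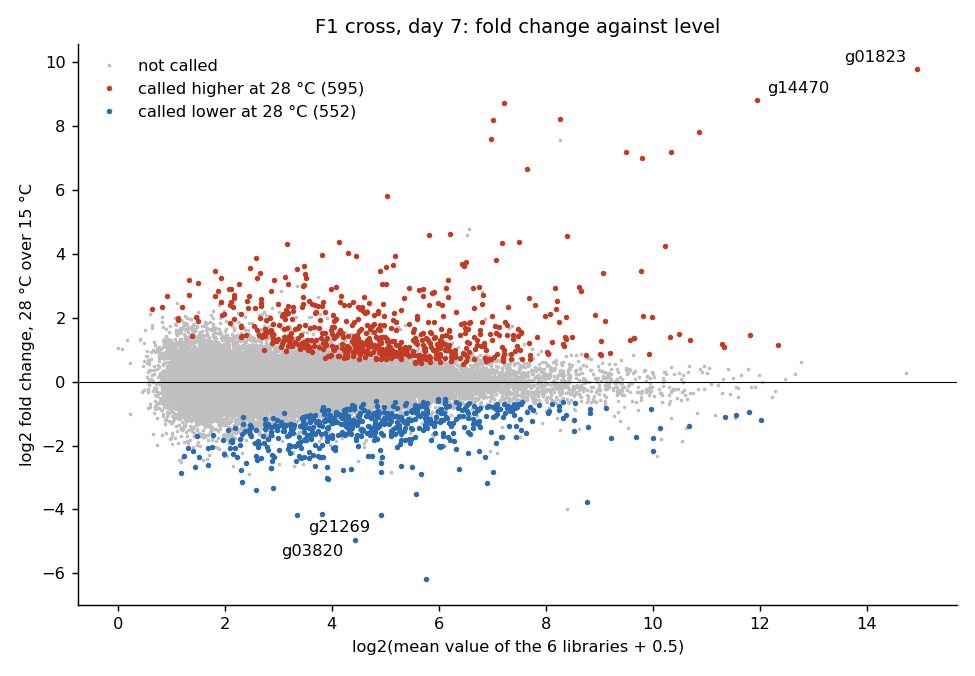
Log2 fold change of 28 °C over 15 °C against log2 of the mean value of the 6 libraries plus 0.5, for all 24011 features of the F1 cross on day 7. Red points are the 595 features called higher, blue points the 552 called lower and grey points the others, and the rises reach 9.77 on this scale while the falls reach a size of 6.19.

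The counts depended on the libraries in the fit and on the scaling. They became 462 without replicate 3 at 28 °C, 622 without replicate 3 at 15 °C, 685 without replicate 1 at 15 °C and 722 without replicate 1 at 28 °C, against 1147 with all libraries. In all 6 fits that left out 1 library, 241 of the higher and 149 of the lower features were called again, and 0 were called in the opposite direction. With every deeper library thinned to 2.57 M reads, 474 features were higher and 379 lower. Shallower libraries of the cross, with 0.455 M on day 28 and 0.614 M on day 3, stayed as they were. Other settings gave more calls than 1147. The count was 1434 with edgeR and 1448 without the 7 libraries apart. It was 1836 with only the groups compared and 1852 without libraries under 1 M reads. Scaling to the column total, which moved the median of all features by -0.12 on the log2 scale, gave 275 higher and 387 lower, so neither direction is reported as the majority.

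Feature g01823 had the largest rise. Its normalised values were 80503, 36243 and 71952 at 28 °C and 60.6, 75.6 and 67.2 at 15 °C. Replicate 2 was the lowest at 28 °C and still far above the 15 °C libraries, which lay close together. The rise came to 9.77 on the log2 scale (SE 0.51, limma adjusted p 4.61e-11). This feature alone took 7.87%, 3.90% and 7.63% of the reads at 28 °C, and between 0.00663% and 0.00900% at 15 °C.

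Feature g14470 came second among the features eligible to be named. It had values of 11113, 5220 and 7130 at 28 °C against 20.8, 15.7 and 12.8 at 15 °C. Replicate 2 was again the lowest of the heated libraries, and the groups did not overlap, which the rule for naming features required. The difference came to 8.81 on the log2 scale (SE 0.43, limma adjusted p 2.13e-11).

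Feature g03820 fell most among those eligible. It had 0.506, 1.51 and 0.463 at 28 °C, which are 5, 15 and 5 reads, against 22.9, 39.6 and 61.0 at 15 °C. All heated libraries were close to the limit of detection, while the 15 °C libraries spread more widely than those of the risen features. It fell by 4.95 on the log2 scale (SE 0.69, limma adjusted p 0.000101). That scale has 0.5 added to each value, which understates falls to such low values.

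Feature g21269 had 4.15, 3.42 and 0.555 at 28 °C against 45.1, 24.2 and 101.7 at 15 °C. One heated library, with 6 reads, lay well under the other heated ones. The groups did not overlap, which the rule for naming features required. It fell by 4.18 on the log2 scale (SE 0.64, limma adjusted p 0.000333).

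**Figure D3:**
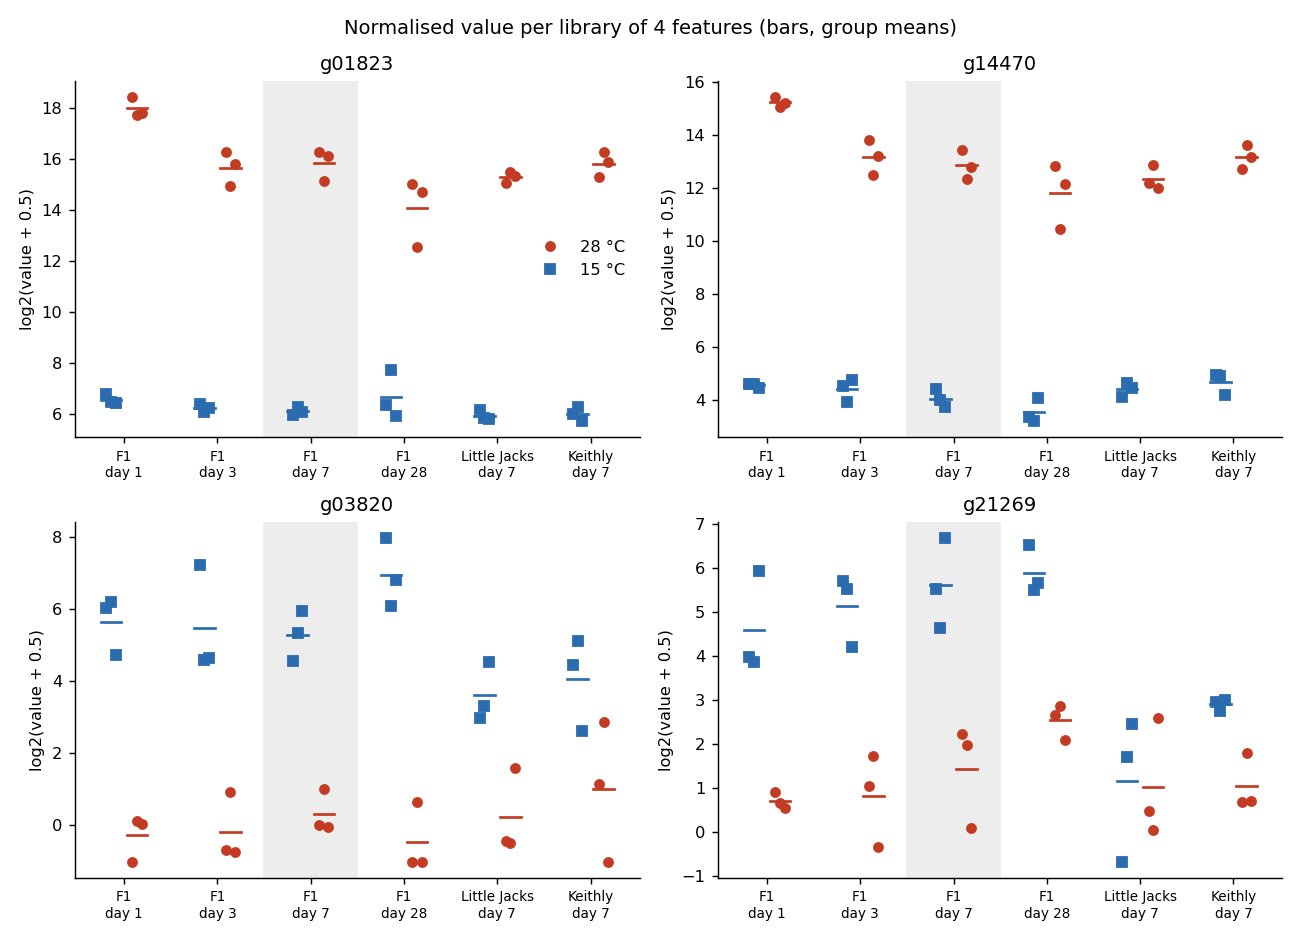
Log2 of the normalised value plus 0.5 in each library, for g01823, g14470, g03820 and g21269 in the F1 cross on days 1, 3, 7 and 28 and in both parental strains on day 7. Red circles are 28 °C libraries, blue squares 15 °C libraries and bars group means, the grey band marks day 7 of the cross, and levels of different strains come from tables that were normalised separately.

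A small number of features took a large part of the heated libraries' reads. The 595 higher features held 19.8%, 13.1% and 19.1% of reads at 28 °C and 3.47%, 3.65% and 3.49% at 15 °C. Of this, the 54 features at least 8-fold higher held 11.5%, 5.88% and 10.4%, against 0.0763%, 0.108% and 0.0656%. The 552 lower features held 3.18%, 3.40% and 2.42% at 28 °C and 7.40%, 6.88% and 8.37% at 15 °C. These sets were chosen on the same libraries, so their shares are a description without a test. The 10 most abundant features of each library, which were not chosen by temperature, held 14.9% ± 1.92 (SD, n = 3) at 28 °C and 8.29% ± 0.586 at 15 °C. The groups did not overlap, at a two-sided exact permutation p of 0.1, adjusted to 0.2. Feature g01823 was 1 of the 54 and also among the 10 at 28 °C. The top 10 share differed by 6.66 points, and the mean share of g01823 alone was 6.47% at 28 °C and 0.00772% at 15 °C. The top 10 measure is therefore not separate from the rise of this feature.

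The 9 ribosomal RNA features count what was left after depletion, and 0 of the 9 were called on day 7, where 4.78% of all features were, so the count is near that share. By limma 3 of the 9 had an unadjusted p under 0.05, as had 3705 of all 24011 features, and edgeR called 0 of the 9. The 6 mitochondrial features all had values above 0 on the log2 scale of the difference. Feature rRNA_16S_1, of the large mitochondrial subunit, had 107.9, 158.0 and 159.5 at 28 °C against 77.0, 31.1 and 104.65 at 15 °C, a log2 fold change of 1.14 (SE 0.39, limma adjusted p 0.104). Its groups did not overlap, and the lowest heated library was barely above the highest at 15 °C. The other 5 lay between 0.39 for rRNA_12S_2 and 0.87 for rRNA_12S_1, with limma adjusted p from 0.345 to 0.670.

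The nuclear features differed in sign. Feature rRNA_28S_1, the most abundant of them, had 892, 2914 and 1668 at 28 °C and 2869, 2184 and 7247 at 15 °C, a log2 fold change of -1.13 (SE 0.49, limma adjusted p 0.241). Feature rRNA_28S_2 had 1.67 (SE 0.80, 0.319) and rRNA_18S_1 had -0.43 (SE 0.83, 0.902). The groups overlapped in all 3. As shares of reads, the mitochondrial features summed to 0.250% ± 0.0544 (SD, n = 3) at 28 °C and 0.200% ± 0.0234 at 15 °C, and the nuclear ones to 0.222% ± 0.131 and 0.479% ± 0.315. Both had a two-sided exact permutation p of 0.3, also after adjustment.

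**Figure D4:**
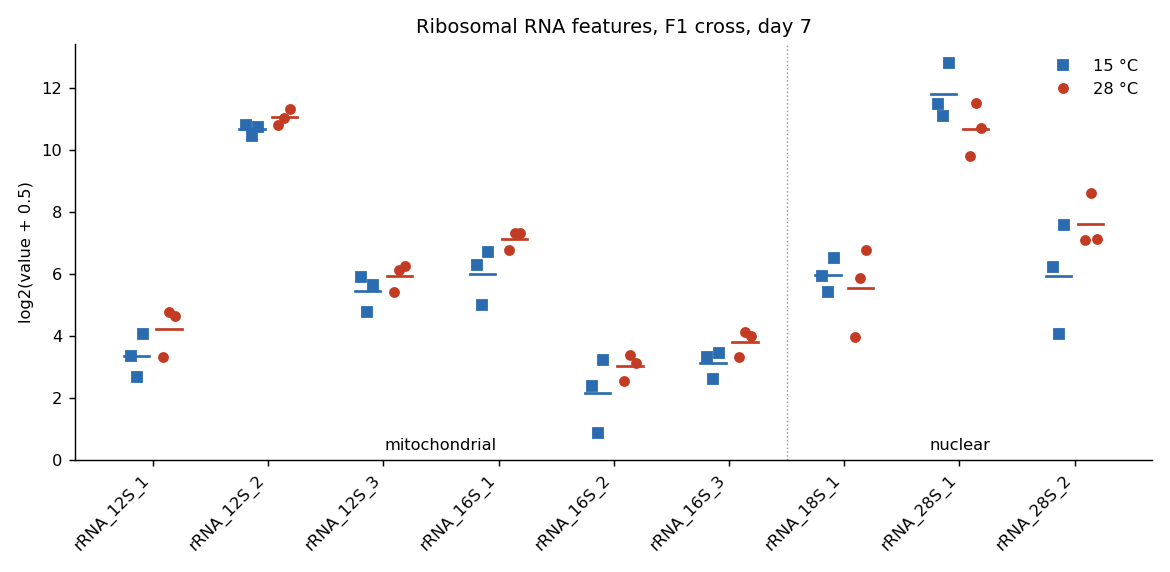
Log2 of the normalised value plus 0.5 of the 9 ribosomal RNA features in the F1 cross on day 7, with 6 mitochondrial features left of the dotted line and 3 nuclear ones right of it. Blue squares are 15 °C libraries, red circles 28 °C libraries and bars group means, and the groups all but touch, without overlap, in rRNA_12S_2 and rRNA_16S_1.

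The next question was how day 7 stood in the time course of the cross. Each day had its own 15 °C libraries, so the days share no control, although a single fit gave all of them a common estimate of spread. The descriptions of the heated day 1 samples of the cross name the Little Jacks table, so that group rests on its column names. The 595 features higher on day 7 had a median log2 fold change of 1.67 on day 1, 1.24 on day 3 and 0.92 on day 28, where all features had -0.04, 0.15 and -0.09. Of them 393 were also called higher on day 1 (66.1%, against 6.7% of all features), 411 on day 3 (69.1%, against 6.38%) and 272 on day 28 (45.7%, against 2.57%). On day 28, 1 heated library and 1 at 15 °C belonged to those that lay apart from their groups. Without such libraries the median was 0.99, against -0.12 for all features, with 261 called. Without libraries under 1 M reads it was 0.86, against -0.02, with 217 called (36.5%). Shares of all features called in these reduced fits are not given here.

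The 552 features lower on day 7 had medians of -1.05, -1.26 and -1.01 on days 1, 3 and 28. Of them 315 were called lower on day 1 (57.1%, against 5.78% of all features), 393 on day 3 (71.2%, against 3.94%) and 292 on day 28 (52.9%, against 3.06%). All 4 days called 175 of the higher and 181 of the lower features. No other day called 83 of the higher and 79 of the lower ones, which is not a test that the effect was limited to day 7. Shares of all features called on all 4 days, or on a single day only, are not given here. These counts are therefore a description without a comparison.

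Read the other way, features chosen on day 1 had smaller effects on day 7. The 1609 features called higher on day 1 had a median of 1.60 there and 0.61 on day 7, where 393 of them were called (24.4%, against 2.48% of all features). The 1388 called lower had -1.28 on day 1 and -0.60 on day 7, where 315 were called (22.7%, against 2.3%). A set chosen on one day tends to be larger on that day, so the difference between days was also tested for each feature.

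The heat effect on day 7 differed from that on day 1 for 460 features, 1.92% of those tested, at a limma adjusted p under 0.05. It was below the day 1 effect for 345 (1.44%) and above it for 115 (0.479%). Both sets were chosen by this difference, so the day 1 and day 7 values and calls of their members are a description. Of the 345, 315 were called higher on day 1, as were 6.7% of all features. These 315 had a median log2 fold change of 2.39 on day 1 and 0.53 on day 7. Among these, 101 were also called higher on day 7, as were 2.48% of all features. The 101 had medians of 3.60 on day 1 and 1.53 on day 7. Of the 345, 31 were called lower on day 7, as were 2.3% of all features. The 31 had medians of 0.75 on day 1 and -1.27 on day 7.

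The 115 features above their day 1 effect were mostly ones that had fallen. On day 1, 84 of them were called lower, as were 5.78% of all features. These 84 had medians of -1.61 on day 1 and 0.14 on day 7. Of the 84, 3 were called lower on day 7, as were 2.3% of all features, so the count is near that share. In 30 of the 115 the feature was called higher on day 7, as were 2.48% of all features. The 30 had medians of -0.39 on day 1 and 1.36 on day 7. Just 2 of the 115 were called higher on day 1, as were 6.7% of all features, and rose further, from a median of 2.87 to 5.81. Under scaling to the column total, which moved the median difference of all features from 0.03 to 0.56, the split was 53 below and 168 above, so the majority direction depends on the scaling.

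Against days 3 and 28 no feature passed the same test. Limma called 0 features for day 7 minus day 3, with 1250 at an unadjusted p under 0.05, and 0 for day 7 minus day 28, with 1055. edgeR called 0 in each, with 1029 and 1065 at an unadjusted p under 0.05. Without replicate 3 of the 15 °C group of day 3, 108 features passed for day 7 minus day 3, 107 of them below. That replicate, with 5.18 M reads, was the deepest of its group, and the library of 0.614 M stayed in. The median difference of all features was then -0.20. Without the library of 0.614 M instead, 0 features passed and the median was -0.02. The part of depth in the 108 was not tested. The median within-group SD of log2 values was 0.437 in that 15 °C group, the highest of the 8 groups of the cross, against 0.281 and 0.234 in the 15 °C and 28 °C groups of day 7.

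None of the 4 named features passed the tests between days. The log2 fold change of g01823 was 11.44 on day 1, 9.44 on day 3, 9.77 on day 7 and 7.43 on day 28, the last 8.72 without the libraries apart and 6.97 without the one under 1 M reads. Its day 7 effect minus its day 1 effect was -1.67 (limma adjusted p 0.398). Feature g14470 had 10.66, 8.75, 8.81 and 8.25 on the same days, with a difference of -1.86 (0.165) from day 1. Features g03820 and g21269 were called lower on all 4 days, with ranges of -7.40 to -4.95 and -4.33 to -3.35. For g03820 the day 28 value was -8.39 without the libraries apart, and the day 3 value went from -5.65 to -4.78 without the library under 1 M reads.

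The share of reads in the 54 features shows the course in single libraries. At 28 °C it was 28.0% to 34.7% on day 1, 5.62% to 12.6% on day 3, 5.88% to 11.5% on day 7 and 1.15% to 6.00% on day 28. The 1.15% of day 28 is a library that lay apart from its group and the 6.00% a library of under 1 M reads, and the third held 4.44%. The day 7 range lies within that of day 3, does not overlap that of day 1 and overlaps that of day 28 only through the library of under 1 M reads. At 15 °C the share stayed between 0.0656% and 0.194% on all days. The set was chosen on day 7, so the day 7 values are a description. Feature g01823 made up much of this share. At 28 °C it alone held 16.7% to 22.4% of reads on day 1 and 3.21% to 7.79% on day 3. It held 3.90% to 7.87% on day 7 and 0.536% to 3.71% on day 28.

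**Figure D5:**
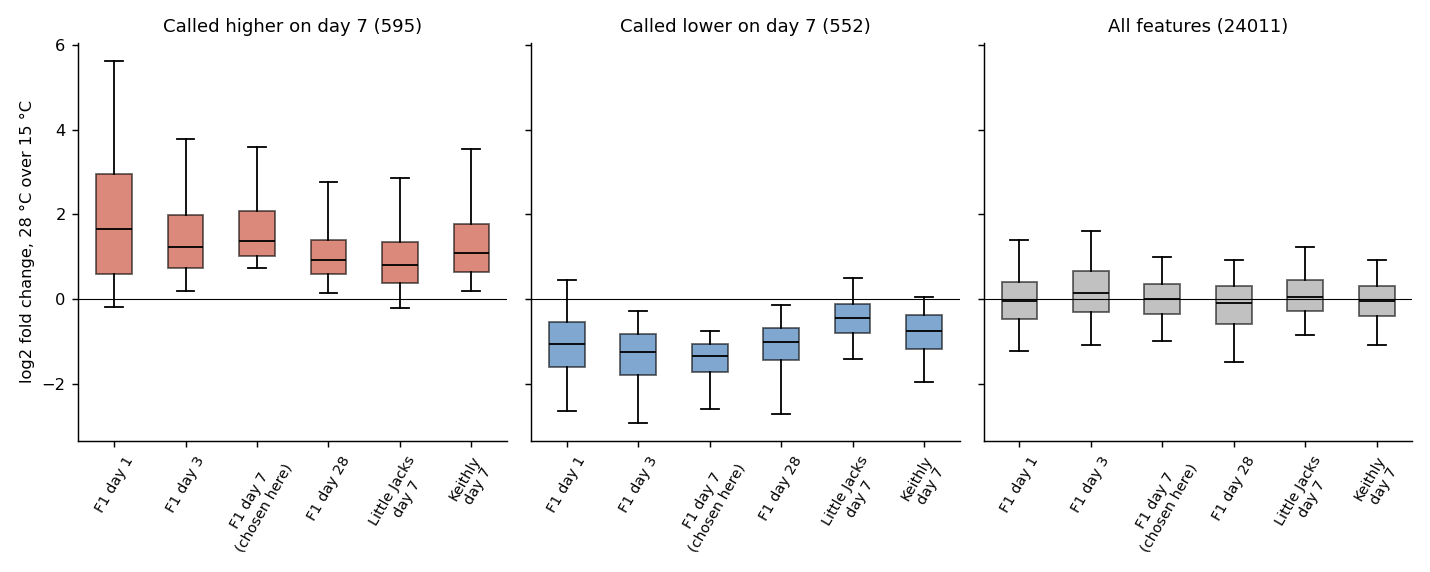
Log2 fold change of 28 °C over 15 °C on each day of the F1 cross and on day 7 of both parental strains, for the 595 features called higher on day 7 of the cross, the 552 called lower and all 24011 features. Boxes give the median and quartiles and whiskers the 5th and 95th percentiles over features, and the medians of both sets lie on the side of 0 they had on day 7 in every other comparison.

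The last question was how the day 7 response of the cross stood beside those of its parents. The tables of the 3 strains were normalised separately, so effects within strains are compared, not levels. The 595 features had a median of 0.80 in Little Jacks, where 591 were measured and 241 called higher (40.8%, against 2.41% of features), and 1.08 in Keithly, where 593 were measured and 348 called (58.7%, against 3.06%). The 552 had -0.45 in Little Jacks, with 77 of 545 called lower (14.1%, against 1.54%), and -0.75 in Keithly, with 175 of 542 (32.3%, against 2.69%). One heated Little Jacks library of day 7 was among those apart from their groups. Without such libraries the Little Jacks medians were 0.89 and -0.46, with 329 and 116 called. The shares of all features called in that reduced fit are not given here.

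Sets chosen in the parents do not favour the cross, but they tend to be larger in the parents, where they were chosen. Both parents called 268 features higher on day 7, with medians of 1.45 in Little Jacks and 1.66 in Keithly, and the cross had 1.67. All 268 had a positive value in the cross, as did 50.1% of all features, and 203 were called higher there (75.7%, against 2.48% of all features). The effect of the cross lay between those of the parents for 103, beyond both for 91 and short of both for 74. Both parents called 90 features lower, with medians of -1.22 and -1.28, and the cross had -1.14. All 90 had a negative value in the cross, as did 49.9% of all features, and 48 were called lower (53.3%, against 2.3%). The effect of the cross lay between those of the parents for 33, beyond both for 14 and short of both for 43. These positions are a description, and their shares over all features are not given here.

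The difference between the cross and a parent was tested for each of 23234 features. The day 7 effect of the cross differed from that of Little Jacks for 55 features (0.237%), at a limma adjusted p under 0.05, being above it for 22 (0.0947%) and below it for 33 (0.142%). The 22 had medians of 1.54 in the cross, -1.12 in Little Jacks and 0.57 in Keithly. The 33 had -1.80, 0.68 and -0.63, so in both sets the medians of Keithly had the sign of the cross. Both sets were chosen by this difference, so their values and calls in the cross and in Little Jacks are a description. Of the 22, 13 were called higher in the cross (2.48% of all features were) and 9 lower in Little Jacks (1.54%). Of the 33, 27 were called lower in the cross (2.3% of all features were) and 5 higher in Little Jacks (2.41%). Scaling to the column total gave 13 above and 10 below, leaving out the 7 libraries apart gave 25 and 65, and leaving out replicate 3 of the cross at 28 °C gave 8 and 10.

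Against Keithly, 0 features were above and 2 below (0.00861%), with 1073 at an unadjusted p under 0.05 and 3 called by edgeR. Leaving out single libraries gave 0 to 6. Against the mean of both parents 24 features differed (0.103%), 7 above (0.0301%) and 17 below (0.0732%), and leaving out single libraries gave 0 to 31. Of the 7, 6 were called higher in the cross (2.48% of all features were), and of the 17, 15 were called lower (2.3%). The 7 and the 17 were chosen by the same difference, so these calls are a description. Scaling to the column total gave 2 above and 3 below. The counts against Little Jacks and against Keithly were not tested against each other.

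The risen features had similar folds in the 3 strains. On day 7, g01823 had a log2 fold change of 9.77 in the cross, 9.38 in Little Jacks and 9.83 in Keithly, and g14470 had 8.81, 7.93 and 8.48. Feature g03820 had -4.95 in the cross, -3.38 in Little Jacks (limma adjusted p 0.0550, and 0.00341 without the libraries apart, at -4.07) and -3.06 in Keithly (0.0203). The cross minus Little Jacks was 0.39, 0.87 and -1.57 for these 3, with limma adjusted p from 0.791 to 0.922.

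Feature g21269 differed more in its values. Its day 7 log2 fold change was -4.18 in the cross, -0.13 in Little Jacks (limma adjusted p 0.955) and -1.85 in Keithly (0.0605). Without the libraries apart, the Little Jacks value was -0.91 (limma adjusted p 0.445). The cross minus Little Jacks was -4.05 and did not pass (limma adjusted p 0.0607), nor did the cross minus Keithly at -2.34 (1.00). At 15 °C on day 7 its mean value was 57.0 ± 40.1 (SD, n = 3) in the cross, 2.61 ± 2.42 in Little Jacks and 6.97 ± 0.721 in Keithly, and at 28 °C it was 2.71 ± 1.90, 2.29 ± 2.75 and 1.72 ± 1.05. These levels come from separately normalised tables and carry no test between strains.

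The mitochondrial ribosomal features had opposite signs in the cross and in Little Jacks. All 6 were above 0 in the cross and below 0 in Little Jacks on day 7, where they lay between -1.14 and -0.94. The cross minus Little Jacks ran from 1.33 to 2.15, and none of the 6 passed, with limma adjusted p from 0.0928 to 0.542. In Little Jacks their limma adjusted p ran from 0.0629 to 0.459 with all libraries, where 1.54% of features were called lower. Without the libraries apart, their limma adjusted p in Little Jacks ran from 0.0125 to 0.138. The share of all features called in that reduced fit is not given here. In Keithly the 6 lay between -0.52 and 0.13. The 15 °C levels behind these effects differed between days. Feature rRNA_12S_2 was the most abundant of the 6. Its 15 °C means on days 1, 3, 7 and 28 were 2608, 2140, 1634 and 2578 in the cross. In Little Jacks they were 2634, 2743, 3495 and 3421. Its 28 °C means on day 7 were 2149 in the cross and 1816 in Little Jacks. The part of the 15 °C libraries in the opposite signs was not tested. The 6 features come from 2 molecules and are not independent of each other. A value below 0 in Little Jacks was not particular to them. The 3 nuclear features had -1.27, -1.17 and -0.73 there, with limma adjusted p from 0.0488 to 0.253 without the libraries apart. The cross minus Little Jacks was above 0 for all 3, with limma adjusted p from 0.531 to 0.997.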

How the data were processed

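Gill RNA was purified on columns, depleted of ribosomal RNA and made into libraries with a ScriptSeq kit, per the labels' protocols. CASAVA 1.8, Bowtie and edgeR were used, per the submitters' processing notes. Which transcriptome served as reference, and which filters were applied, is not given in the sources used here. For each strain the authors deposited 1 table of a normalised signal per feature. The descriptions call it CPM, but the deposited column sums ran from 0.819 to 1.77 M. The authors' library table gives 2 other quantities, quality reads (M, mega) and the percent of them that matched, as its column labels state. Columns were tied to groups by name, and their replicate numbers match no sample label.

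Values were whole multiples of the smallest value in a column within 0.01 for 100% of values, which gave recovered reads of 0.276 to 19.9 M per library. Every feature of the F1 table had a value of at least 1 in at least 9 of its 24 libraries, so the filter (1 in 3 libraries) removed none. Main tests were limma 3.58.1 (R 4.3.3) with a trended prior on log2(value + 0.5), 1 mean per group, over the 24 libraries of the cross or, between strains, over all 72, with Benjamini-Hochberg adjustment over all features, two-sided. Whole-table alternatives were edgeR 4.0.16 (quasi-likelihood, recovered reads), size factors by median of ratios, column totals, pseudocounts of 0.1 and 2, a mean of at least 5, fewer libraries and each library left out. Thinning and leaving out libraries under 1 M reads were added after seeing the data. The fits were also run on simulated counts with known fold changes in the heated day 7 group of the cross, and the outcome is not given here.

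The comparison, lists and tests were chosen with earlier results of these data known. Named features are the 2 that rose and the 2 that fell most among called ones with a mean of at least 5, more than 3 reads in each of the 6 libraries and no overlap, plus all ribosomal RNA features. Sequences and gene lists were not used here, since no identifier matched a name. Limits of reads cover counting error only, whereas the SE and p-values of limma measure the spread between libraries.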

Additional observations from a re-analysis of the deposited data

Results flagged for a closer look

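The heat effect of the F1 cross on day 7 differed from that on day 1 for 460 features by the direct test of the difference (limma adjusted p under 0.05). The day 7 effect differed from that of Little Jacks for 55 features, from that of Keithly for 2 and from the mean of both parents for 24, each by the same kind of test.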

How the results depend on the processing

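No paired analysis was possible because the columns carry no replicate number that the sample labels give. Features g01823, g14470, g03820 and g21269 kept their direction and call in 64 of 64 alternatives, with limma or edgeR adjusted p up to 0.00475. They were chosen on these libraries as called and without overlap, so this is not independent support. The 9 ribosomal RNA features were called in 0 of 144, and rRNA_18S_1 turned to 0.35 without replicate 1 at 28 °C, in a range of -1.04 to 0.35 without single libraries. The 4 library measures kept their direction in 25 of 25. The causes of the following shifts were not tested. The day 7 count of 1147 was 662 with column totals, 1836 with only the groups compared, 1852 without libraries under 1 M reads and 462 to 961 without single libraries. Day 7 minus day 1 (460) was 221, 910, 706 and 272 to 367 in the same order. The libraries that moved it over 1.5 times gave 272 and 306 without replicate 3 of day 1 at 28 °C and 15 °C, 288 without replicate 2 of day 1 at 15 °C and 305 without replicate 3 of day 7 at 28 °C. Without single libraries, day 7 minus day 3 gave 0 to 108 and day 7 minus day 28 gave 0 to 3. The cross minus Little Jacks (55) was 85 with a pseudocount of 2 and with a mean of at least 5, 23 with column totals, 94 with median of ratios, 90 with edgeR and without the 7 libraries apart, 7 with only the groups compared, 134 without libraries under 1 M and 18 to 80 without single libraries, of which 5 moved it over 1.5 times (18 without replicate 3 of the cross at 28 °C, 31 and 30 without its replicates 1 and 3 at 15 °C, 26 without replicate 1 of Little Jacks at 28 °C, 31 without its replicate 3 at 15 °C). The cross minus Keithly (2) was 5 with a pseudocount of 2, 0 with column totals, 1 with only the groups compared and after thinning, 4 without the 7 and 0 to 6 without single libraries, of which 11 of 12 moved it. The cross minus the parental mean (24) was 5 with column totals, 14 with only the groups compared, 40 without the 7, 37 without libraries under 1 M, 13 after thinning and 0 to 31 without single libraries, of which 11 of 18 moved it. Depth limits the low features, since 3 reads are worth 0.278 to 0.982 units on day 7.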
